A study of Mus musculus with 26 samples.

Results

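The cytosolic ribosomal protein genes were taken as every gene symbol that starts with Rpl or Rps followed by a number, with an optional final a, x or l, together with Rpsa, Rplp0, Rplp1 and Rplp2. The rule found 81 of the 22322 gene symbols. Of these, 46 encode proteins of the large subunit or paralogs of them, 32 encode proteins of the small subunit or paralogs of them, and 3 encode the acidic stalk of the large subunit. Each symbol was represented by its best expressed transcript, and 40 of the 81 had a single transcript.

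RNA was sequenced from livers of C57BL/6 mice that were 8 weeks old and had spent 2 days in darkness. The Bmal1 experiment held 3 livers in each of 4 groups: mice labelled Bmal1 knockout at CT12, control mice at CT12, mice labelled Bmal1 knockout at CT0, and control mice at CT0. The Nr1d1 experiment held the same 4 groups for mice labelled Nr1d1 knockout and their controls, with 2 livers each. The Bmal1 deletion is labelled as specific to the liver, with the driver of the deletion not named, and the Nr1d1 knockout is labelled with no tissue. The controls are called wild type, and CT0 stands for the hour of lights-on in the light and dark cycle that came before. Bmal1, whose gene symbol is Arntl, encodes an activator of the circadian clock, and Nr1d1 encodes the clock repressor REV-ERB alpha. The labels speak of pairs of knockout and wild-type mice, so that p-values measure the spread between mice and their libraries together. Only replicate 2 of the Nr1d1 experiment is called paired-end.

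The targeted genes went against the labels in part. Arntl stood at 3.59 to 4.37 RPKM in livers labelled Bmal1 knockout at CT12, against 0.680 to 1.26 RPKM in control livers at CT12, and at 5.73 to 7.45 RPKM in livers labelled Bmal1 knockout at CT0, against 15.7 to 16.3 RPKM in control livers at CT0. RPKM count reads relative to transcript length and library depth. Nr1d1 was at 11.1 (replicate 1) and 28.4 RPKM (replicate 2) in livers labelled Nr1d1 knockout at CT12, against 3.45 and 33.4 RPKM in control livers at CT12. At CT0 it was at 6.10 and 32.9 RPKM in livers labelled Nr1d1 knockout, against 0.374 and 22.0 RPKM in control livers, replicate 1 given before replicate 2. These values cover whole transcripts, and a deletion of single exons cannot be seen in them. Hepatocyte markers were abundant in the Bmal1 experiment, where the 10 marker genes summed to 27724 to 52416 RPKM per library.

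Ribosomal proteins bind ribosomal RNA to form the small subunit, which decodes the mRNA, and the large subunit, which joins amino acids. The stalk proteins of the large subunit recruit the elongation factors. Their mRNAs are known as TOP mRNAs because they begin with a cytosine followed by a run of pyrimidines, through which mTOR and the RNA-binding protein LARP1 control their translation. In mouse liver, the production of ribosomes and the translation of these mRNAs are known to follow the daily rhythm of the clock and of feeding.

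Sequence around the annotated transcription start was looked up in RefSeq (GRCm38.p6), and 61 of the 81 genes matched by symbol. The windows below are shown because they hold the start of the mRNA, where the pyrimidine run of a TOP mRNA lies, for genes that the results describe. Each runs from 10 bases before the annotated start to 20 bases from it on, 5′ to 3′ on the strand of the gene, and the capitals mark the longest run that begins with C and goes on with at least 4 C or T.
Rps6 (chr4:86857348-86857377, minus strand): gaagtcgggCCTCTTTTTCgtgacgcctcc
Rpl38 (chr11:114668570-114668599, plus strand): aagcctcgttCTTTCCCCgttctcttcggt
Rps27 (chr3:90213629-90213658, minus strand): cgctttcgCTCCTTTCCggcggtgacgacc
Rplp2 (chr7:141447641-141447670, plus strand): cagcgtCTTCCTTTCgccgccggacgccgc
Rpl12 (chr2:32961702-32961731, plus strand): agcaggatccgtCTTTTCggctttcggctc
Rpl13a (chr7:45128726-45128755, minus strand): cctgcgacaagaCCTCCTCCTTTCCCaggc
Rps12 (chr10:23787190-23787219, minus strand): tcatgcggccaccgccggCCTTTTCCCCTg
Rplp0 (chr5:115559457-115559486, plus strand): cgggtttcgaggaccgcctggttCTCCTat
The run covered the annotated start in Rps6, Rpl38, Rps27 and Rplp2, began at base 3 of the annotated mRNA in Rpl12 and Rpl13a, and began at base 9 in Rps12 and at base 14 in Rplp0.

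A cytosine followed by at least 4 C or T stood at the annotated start itself in 13 of the 61 genes (21.3%), against 3.01% of the 27025 genes in the RefSeq table. Within 5 bases on either side of the start such a run began in 28 of the 61 (45.9%), against 21.2% of all genes. The letters CCGGAA, the core bound by ETS-type factors, were found on either strand of the 300 bases around the start in 34 of the 61 (55.7%), against 16.7% of all genes. The letters CACGTG, the E-box bound by CLOCK and BMAL1, were found in 6 of the 61 (9.84%), namely Rpl13a, Rpl14, Rpl19, Rpl23, Rpl34 and Rps19, against 8.09% of all genes. The letters AGGTCA, which lie in the elements bound by REV-ERB alpha, were found in 7 of the 61 (11.5%), against 18.1% of all genes. None of the 3 motifs holds another. A match is a description of the sequence and not a binding site.

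In the Bmal1 experiment their mean over the 12 libraries was highest for Rps27 (613 RPKM), Rpl10 (601 RPKM), Rps12 (498 RPKM), Rps24 (460 RPKM) and Rps18 (446 RPKM), all divided by transcript length. The lowest of the 78 genes tested there were Rps20 (36.6 RPKM), Rpl35 (82.3 RPKM), Rpl29 (82.5 RPKM) and Rpl22 (112 RPKM). Rps27 and Rpl10 were the highest in replicate 1 of the Nr1d1 experiment as well, at means of 512 and 482 RPKM, before Rps2 (464 RPKM), Rplp1 (414 RPKM) and Rps18 (360.3 RPKM). In replicate 2, Rpl10 (2742 RPKM), Rps18 (2363 RPKM), Rplp1 (2250.5 RPKM), Rps2 (2034 RPKM) and Rplp0 (1669.6 RPKM) led. Rps20 was the lowest of the genes above the minimum in replicate 1, at 25.2 RPKM.

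The paralogs named with a final l differed in level. Rps27l, the paralog of Rps27, averaged 344 RPKM in the Bmal1 experiment. Rpl10l, a testis paralog of Rpl10, was listed at 0 in all 20 libraries. Rpl39l, another testis paralog, reached at most 0.0962 RPKM in the Bmal1 experiment and 0.201 RPKM in the Nr1d1 experiment, and Rpl3l, the muscle paralog of Rpl3, reached at most 0.0993 RPKM in the Bmal1 experiment and 1.85 RPKM in the Nr1d1 experiment. These 3 genes fell under the minimum mean of 0.5 RPKM in the Bmal1 experiment, so that 78 of the 81 were tested there. In the Nr1d1 experiment 79 were tested, since Rpl3l passed through replicate 2. Ribosomal protein genes have many processed pseudogenes, and how reads that map to several copies were counted is not given in the sources used here, so single levels are uncertain to that extent.

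Depth did not limit these genes in the Bmal1 experiment. Each of the 78 genes tested had at least 623 reads in every library. Reads were recovered from the steps of the RPKM values within a tolerance of 0.05. They are the smallest whole numbers that fit, and the true reads may be a multiple of them. The highest recovered number was 7707 and the median over genes 2247. The lowest, 623, leaves a counting error of at most 4.01%. In the Nr1d1 experiment the reads behind these genes could not be recovered and the depth behind each value is unknown.

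**Figure D1:**
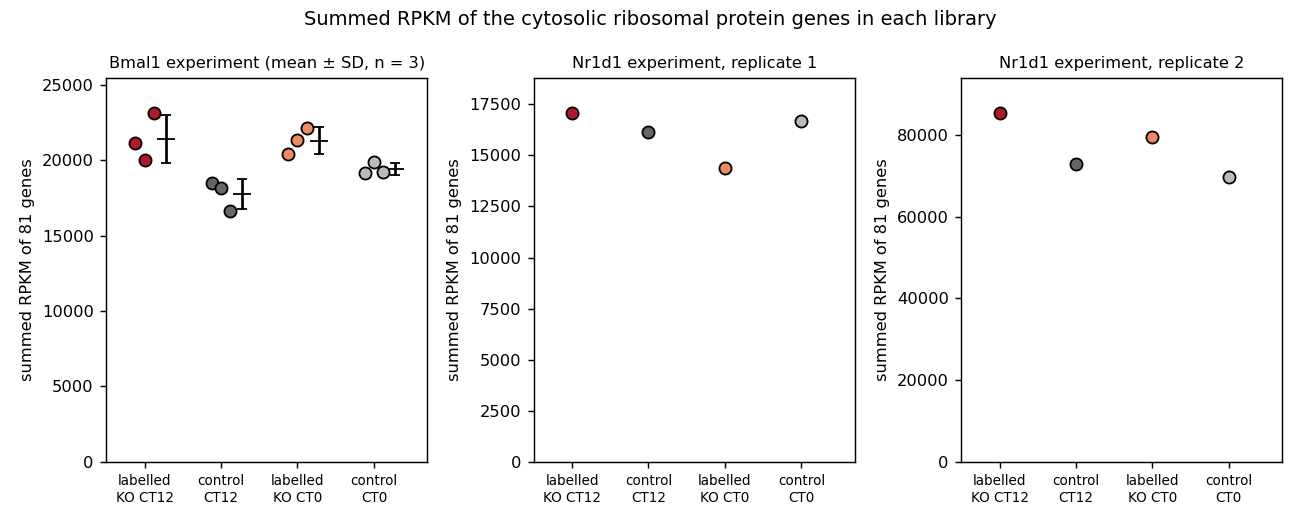
Summed RPKM of the 81 ribosomal protein genes in each library, by group, for the Bmal1 experiment with mean and SD over 3 livers and for each replicate of the Nr1d1 experiment on its own axis. In the Bmal1 experiment, with RPKM as deposited, the 6 libraries labelled knockout lie between 20011 and 23114 RPKM. All lie above the 6 control libraries, which lie between 16623 and 19861 RPKM.

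The summed level of the 81 genes was higher in livers labelled Bmal1 knockout than in controls at both times. At CT12 the sum was 21120, 20011 and 23114 RPKM in livers labelled knockout, against 18489, 18146 and 16623 RPKM in control livers. At CT0 it was 20427, 21320 and 22163 RPKM in livers labelled knockout, against 19185, 19861 and 19213 RPKM in control livers. With RPKM as deposited the groups did not overlap at either time, and the control livers at CT12 were the lowest of the 4 groups. Whether the CT0 groups stay apart depends on the scaling of the libraries.

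As a share of the RPKM summed over all genes, the 81 genes took 4.81 ± 0.25% in livers labelled Bmal1 knockout at CT12, against 3.97 ± 0.17% in control livers (SD, n = 3 each). At CT0 the share was 4.69 ± 0.20% in livers labelled knockout, against 4.15 ± 0.13% in control livers. Albumin, Alb, the main secreted protein of hepatocytes, took 3.34 ± 0.20% in livers labelled knockout at CT12, against 6.90 ± 0.70% in control livers, and 4.19 ± 0.49% in livers labelled knockout at CT0, against 7.69 ± 0.50% in control livers. A gene that takes a smaller share of the reads leaves more to all others, and its part in the result was tested only through the scalings of the libraries given with each comparison. Between liver groups in bulk RNA, fewer cells of a type and less RNA per cell cannot be told apart.

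Set against other housekeeping complexes in the same libraries, a ratio that no scaling factor per library can change, the sum of the 81 genes was 11.7, 10.5 and 11.6 times the summed RPKM of the 40 proteasome subunit genes in livers labelled Bmal1 knockout at CT12. It was 9.69, 10.4 and 9.01 times that sum in control livers at CT12, and the groups did not overlap, with 10.5 the lowest in livers labelled knockout and 10.4 the highest in controls. At CT0 the ratio was 9.65, 11.6 and 10.96 in livers labelled knockout, against 9.40, 10.1 and 9.57 in control livers, and the groups overlapped. The ratio to the 77 mitochondrial ribosomal protein genes was 15.2 ± 0.89 in livers labelled knockout at CT12, against 13.5 ± 0.54 in control livers (SD, n = 3 each). At CT0 that ratio was 15.2 ± 1.6 in livers labelled knockout, against 14.8 ± 0.51 in control livers, a difference smaller than the spread.

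The balance of the subunits was compared as a ratio. The summed RPKM of small-subunit genes was 0.886 ± 0.0065 times that of large-subunit genes in livers labelled Bmal1 knockout at CT12, against 0.902 ± 0.011 in control livers, and 0.883 ± 0.011 in livers labelled knockout at CT0, against 0.906 ± 0.0042 in control livers (SD, n = 3 each). The groups overlapped at CT12. At CT0 they did not, with 0.875 to 0.895 in livers labelled knockout, against 0.902 to 0.910 in control livers.

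At CT12, 26 of the 78 genes tested rose in livers labelled Bmal1 knockout and none fell by limma on log2(RPKM + 0.5), at a Benjamini-Hochberg adjusted p under 0.05 over all 11439 genes tested. Of all genes tested, 6.46% rose and 3.22% fell. The 26 were 14 of 43 large-subunit genes, 11 of 32 small-subunit genes and 1 of the 3 stalk genes, Rplp1. The median log2 difference was 0.27 over the 78 genes, against 0.09 over all genes tested, and 77 of the 78 differences were above 0. The 3 libraries labelled knockout all lay above the 3 control libraries in 61 of the 78 genes and all below them in none, against 19.9% and 8.03% of all genes tested. An unadjusted p was under 0.05 in 84.6% of the 78, against 24.0% of all genes.

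**Figure D2:**
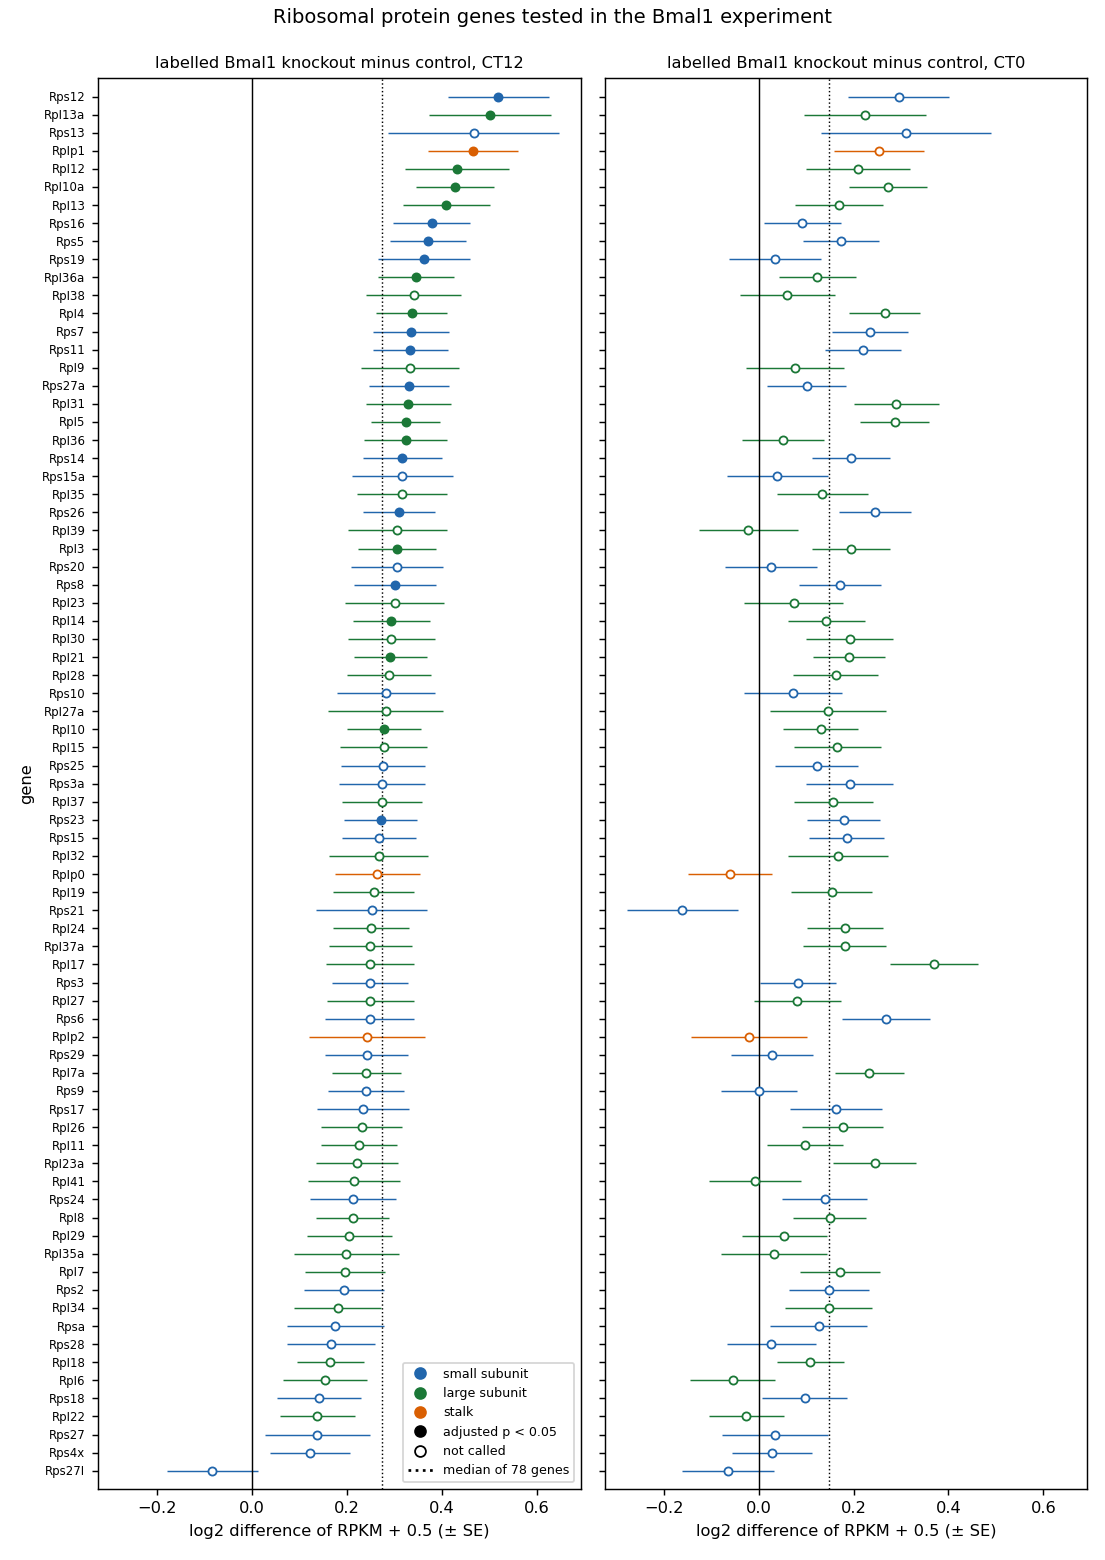
Log2 difference of RPKM + 0.5 (± SE, limma) between livers labelled Bmal1 knockout and control livers for 77 of the 78 genes tested, at CT12 on the left and CT0 on the right, in the order of the CT12 values; filled points passed an adjusted p of 0.05 and the dotted line is the median of the 78. At CT12 the filled points lie between 0.27 and 0.52 and only Rps27l lies left of 0; at CT0 no point is filled.

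Rps12, a small-subunit protein whose fly counterpart acts in cell competition, stood at 571, 504 and 615 RPKM in livers labelled Bmal1 knockout at CT12, against 410, 416 and 352 RPKM in control livers. All libraries labelled knockout were above all controls. The difference was the largest of the 78, at a log2 difference of 0.52 ± 0.11 (SE, adjusted p = 0.0090 by limma).

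Rplp1, which forms the stalk with Rplp0 and Rplp2, stood at 423, 421 and 469 RPKM in livers labelled Bmal1 knockout at CT12, against 344, 318 and 290 RPKM in control livers. The groups did not overlap, and the log2 difference was 0.47 ± 0.09 (SE, adjusted p = 0.0084 by limma). Rplp0, the scaffold of the stalk, was at 219, 204 and 234 RPKM in livers labelled knockout, against 187, 189 and 170 RPKM in control livers. Its groups did not overlap either, but its log2 difference of 0.26 ± 0.09 did not pass (adjusted p = 0.086 by limma). Rplp2 was at 255, 201 and 218 RPKM in livers labelled knockout, against 205, 203 and 162 RPKM in control livers, with overlapping groups and a log2 difference of 0.24 ± 0.12 (adjusted p = 0.26 by limma).

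Rpl10a, which forms the stalk through which spent tRNA leaves the ribosome, stood at 221, 209 and 222 RPKM in livers labelled Bmal1 knockout at CT12, against 175, 155 and 155 RPKM in control livers. The groups did not overlap, and the log2 difference was 0.43 ± 0.08 (SE, adjusted p = 0.0059 by limma), the smallest adjusted p of the 78 genes.

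Rpl13a, a large-subunit protein that is also used as a reference gene and in human cells takes part in a translational silencing complex, stood at 269, 268 and 331 RPKM in livers labelled Bmal1 knockout at CT12, against 224, 202 and 185 RPKM in control livers. Its log2 difference was 0.50 ± 0.13 (SE, adjusted p = 0.029 by limma). Rpl12, which binds at the base of the stalk, stood at 204, 178 and 205 RPKM in livers labelled knockout, against 164, 147 and 125 RPKM in control livers. Its log2 difference was 0.43 ± 0.11 (SE, adjusted p = 0.028 by limma). In both genes every library labelled knockout exceeded every control library. Rpl13a was called in 9 and Rpl12 in 8 of the 12 fits with 1 library left out, and each under 3 of the 5 other scalings.

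**Figure D3:**
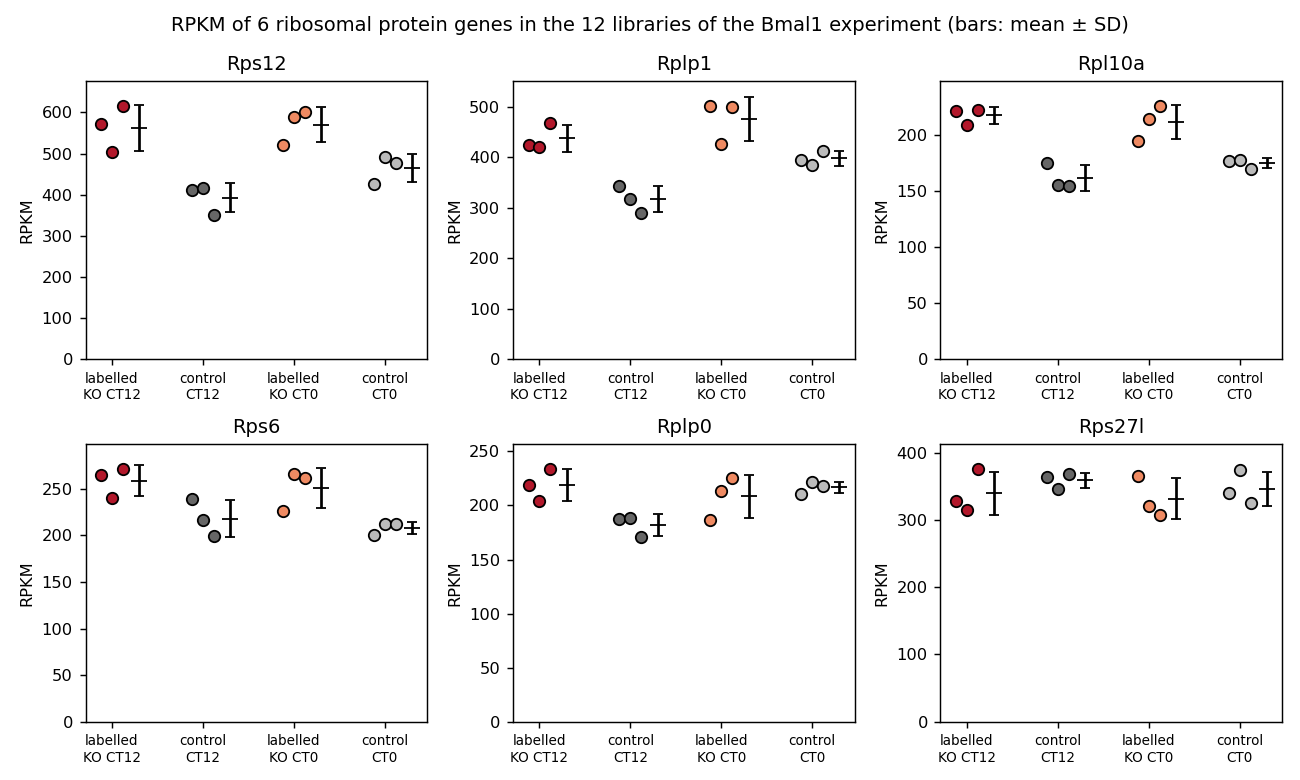
RPKM of Rps12, Rplp1, Rpl10a, Rps6, Rplp0 and Rps27l in each of the 12 libraries of the Bmal1 experiment, by group, with mean and SD over 3 livers. At CT12 the libraries labelled knockout lie above the controls in all panels but that of Rps27l, where they span 315 to 376 RPKM, against 346 to 368 RPKM in the controls.

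Among genes with roles beyond the ribosome, several passed at CT12. Rps19, which is mutated in the human anaemia named after Diamond and Blackfan, was at 328, 335 and 371 RPKM in livers labelled Bmal1 knockout, against 255, 292 and 257 RPKM in control livers, a log2 difference of 0.36 ± 0.10. Rps27a, which is made as a fusion with ubiquitin, was at 302, 299 and 358 RPKM in livers labelled knockout, against 261, 257 and 242 RPKM in control livers, a log2 difference of 0.33 ± 0.08. Rpl5, which binds the smallest RNA of the large subunit, was at 312, 274 and 285 RPKM in livers labelled knockout, against 240, 231 and 223 RPKM in control livers, a log2 difference of 0.32 ± 0.07. In each of these 3 genes the groups did not overlap, and the adjusted p-values by limma were 0.036, 0.027 and 0.015. Rpl10, a late-joining protein of the large subunit, had a log2 difference of 0.28 ± 0.08 (adjusted p = 0.045 by limma). With each of the 12 libraries left out in turn, Rpl5 was called in 10 fits, Rps27a in 9, Rps19 in 5 and Rpl10 in 1. Under the 5 other scalings Rps27a was called in 3, Rpl5 and Rpl10 in 2 and Rps19 in 1.

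Others of this kind did not pass. Rps6, the target of the ribosomal S6 kinases, was at 265, 241 and 271 RPKM in livers labelled Bmal1 knockout at CT12, against 239, 216 and 199 RPKM in control livers, with no overlap and a log2 difference of 0.25 ± 0.09 (adjusted p = 0.13 by limma). Rpl38, which in mouse embryos is needed for the translation of Hox mRNAs, had a log2 difference of 0.34 ± 0.10 (adjusted p = 0.052 by limma). The log2 differences were 0.28 ± 0.09 for Rps25, which some viral mRNAs need for translation, 0.27 ± 0.10 for the common reference gene Rpl32, 0.25 ± 0.08 for Rps3, which also acts in DNA repair, 0.23 ± 0.08 for Rpl11, the partner of Rpl5, 0.18 ± 0.10 for Rpsa, also known as the laminin receptor, and 0.14 ± 0.08 for Rpl22, which is needed for lymphocyte development in mice. Rpl3, the parent of Rpl3l, passed at 0.31 ± 0.08 (adjusted p = 0.038 by limma), though in only 4 of the 12 fits with 1 library left out, while Rpl39, the parent of Rpl39l, did not at 0.31 ± 0.10 (adjusted p = 0.091 by limma).

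The genes farthest below the median of the 78 at CT12 were Rps27l, Rps4x and Rps27. Rps27l was at 328, 315 and 376 RPKM in livers labelled Bmal1 knockout, against 364, 346 and 368 RPKM in control livers, with overlapping groups and a log2 difference of -0.08 ± 0.10, the only one below 0. Rps4x, a gene of the X chromosome, was at 271, 253 and 309 RPKM in livers labelled knockout, against 257, 265 and 242 RPKM in control livers. Rps27 was at 643, 607 and 736 RPKM in livers labelled knockout, against 572, 652 and 578 RPKM in control livers. The groups of Rps4x and Rps27 overlapped, with log2 differences of 0.12 ± 0.08 and 0.14 ± 0.11. Farthest above the median, beside Rps12 and Rpl13a, was Rps13 at 0.47 ± 0.18, whose larger standard error left it short of the threshold (adjusted p = 0.13 by limma). The 78 log2 differences had a standard deviation of 0.09 among themselves, as large as the median standard error of a gene, 0.09.

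The number of genes called at CT12 depended on how the libraries were scaled and on single libraries. With libraries scaled by a trimmed mean of log2 ratios or by a median ratio over the other genes, 3 of the 78 rose and the median of the 78 was 0.18, with the median of all genes near 0. With equal library sums 40 rose, and with quantile normalization 25 rose, of which 22 were among the 26. Under the trimmed mean 486 of all 11439 genes rose and 549 fell, against 739 and 368 with RPKM as deposited. The share of the 78 that rose under the trimmed mean was slightly below that of all genes. With the replicate number as a block 16 rose, and Rpl13a, Rpl12, Rpl10 and Rpl3 were among those not called. Under none of the alternatives did a gene of the 78 fall. Without knockout-labelled replicate 3 at CT12, 6 of the 78 genes were called, and without knockout-labelled replicate 1 at CT12, 10. Without control replicate 3 at CT12, 3 were called, and without control replicate 2 at CT12, 11. Calls over all genes are given here only for RPKM as deposited and the trimmed mean. The other counts therefore cannot show whether a change is particular to the ribosomal protein genes. Rps12, Rplp1 and Rpl10a were called under each of the 5 other scalings and with each of the 12 libraries left out in turn.

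**Figure D4:**
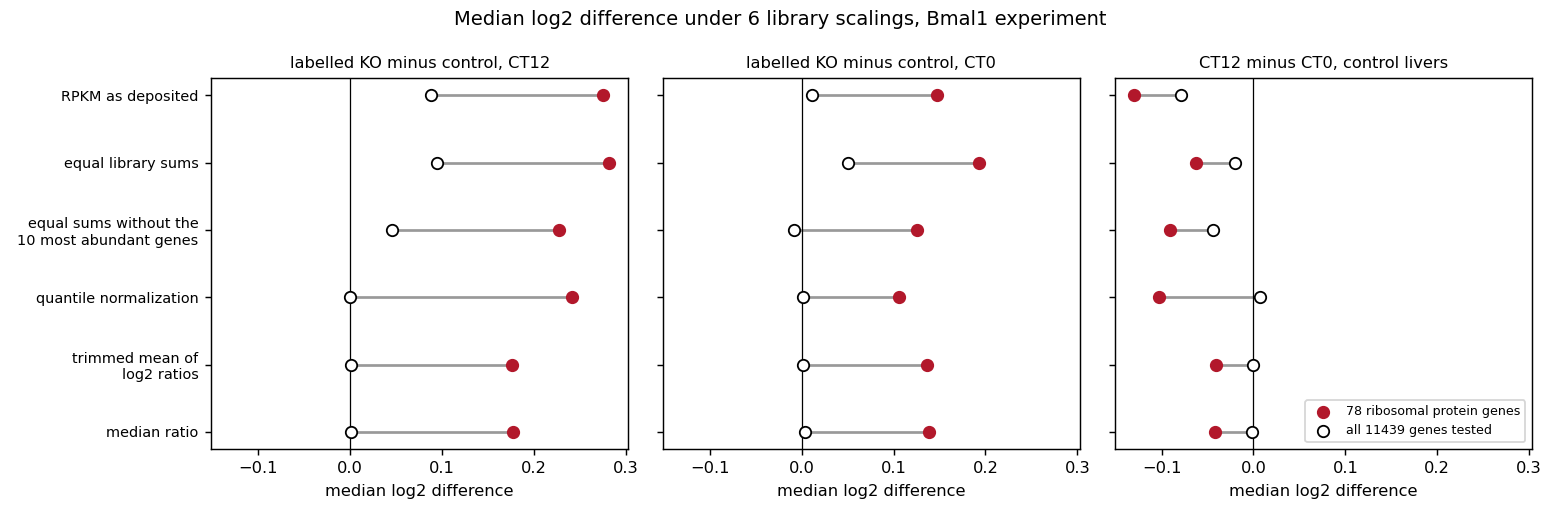
Median log2 difference (x axis) of the 78 ribosomal protein genes (filled) and of all 11439 genes tested (open) under 6 scalings of the libraries (rows), for livers labelled Bmal1 knockout minus control at CT12, the same at CT0, and CT12 minus CT0 in control livers. For CT12 the filled points lie between 0.18 and 0.28, right of the open points, which lie between 0.00 and 0.10.

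Markers of other cells moved with the CT12 comparison. The 7 neutrophil markers summed to 46.3, 30.2 and 17.8 RPKM in livers labelled Bmal1 knockout, against 7.35, 5.94 and 8.80 RPKM in control livers, and 2 of the 7, S100a8 and S100a9, rose. The 7 erythroid markers found summed to 246 to 307 RPKM in livers labelled knockout, against 107 to 190 RPKM in control livers, and 2 of the 5 tested, Hba-a2 and Hbb-b2, rose. The 10 Kupffer cell or macrophage markers summed to 138 to 234 RPKM in livers labelled knockout, against 128 to 191 RPKM in control livers, and none was called. The 9 lymphocyte markers found summed to 14.0 to 19.45 RPKM in livers labelled knockout, against 7.25 to 11.5 RPKM in control livers. The 10 stellate cell or fibroblast markers summed to 126 to 162 RPKM in livers labelled knockout, against 102 to 120 RPKM in control livers. Neither of these lists held a called gene, with 2 lymphocyte markers tested, and the 9 endothelial markers, with sums of 77.3 to 160 RPKM in livers labelled knockout, against 96.7 to 104 RPKM in control livers, held none. The 10 hepatocyte markers summed to 27724 to 31261 RPKM in livers labelled knockout, against 39614 to 48238 RPKM in control livers, a sum dominated by Alb, which fell. None of the marker genes found was at 0 in every library of the Bmal1 experiment, and the part of these cells in the result was not tested.

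At CT0 none of the 78 genes passed in livers labelled Bmal1 knockout by limma, against 0.909% of all genes that rose and 0.708% that fell, and 20 of the 78 (25.6%) had an unadjusted p under 0.05, against 13.6% of all genes. The median log2 difference was 0.15 over the 78, against 0.01 over all genes, and 70 of the 78 were above 0. The libraries labelled knockout all lay above the controls in 44 of the 78 genes and all below in none, against 10.8% and 9.07% of all genes tested. They lay above in 26 genes with the trimmed mean, in 28 with the median ratio, in 21 with quantiles, in 54 with equal sums, and in 24 with equal sums without the 10 most abundant genes. Quantiles and the last of these put 1 gene below. Of all genes, 9.52% to 14.7% lay above under these scalings. In 40 of the 44 the libraries labelled knockout also all lay above the controls at CT12. This count was not made over all genes, so it does not show a trait of the ribosomal protein genes. The 7 neutrophil markers summed to 104 to 219 RPKM in livers labelled knockout at CT0, against 32.2 to 112 RPKM in control livers, with 0 of the 7 called and all 7 at an unadjusted p under 0.05. The hepatocyte markers summed to 31485 to 36391 RPKM in livers labelled knockout at CT0, against 47154 to 52416 RPKM in control livers. The sums of the neutrophil markers and of all other marker lists overlapped. The part of these cells in the result was not tested. With equal library sums 6 of the 78 rose at CT0, and 170 of all genes rose and 73 fell, against 104 and 81 with RPKM as deposited.

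Rpl17, a large-subunit protein at the exit of the nascent chain, had the largest value at CT0. It stood at 342, 396 and 400 RPKM in livers labelled Bmal1 knockout, against 301, 296 and 281 RPKM in control livers. The groups did not overlap, and the log2 difference was 0.37 ± 0.09 (SE, adjusted p = 0.076 by limma). Rpl5 was at 285, 288 and 284 RPKM in livers labelled knockout, against 234, 239 and 231 RPKM in control livers, with no overlap and a log2 difference of 0.29 ± 0.07 (adjusted p = 0.079 by limma). Rps13 (0.31 ± 0.18) and Rps12 (0.29 ± 0.11) followed at the upper end. At the lower end, Rps21 was at 274, 268 and 327 RPKM in livers labelled knockout, against 312, 347 and 310 RPKM in control livers, with overlapping groups and a log2 difference of -0.16 ± 0.12. Rps27l and Rplp0 both had a log2 difference of -0.06, with standard errors of 0.10 and 0.09.

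In livers labelled Bmal1 knockout no gene of the 78 was called between CT12 and CT0 by limma, and none had an unadjusted p under 0.05 (19.2% of all genes had), against 0.909% of all genes that rose and 0.988% that fell. The median log2 difference was 0.01 over the 78, against -0.0052 over all genes. The CT12 libraries all lay above the CT0 libraries in 2 of the 78 genes and below in none, against 11.4% and 11.2% of all genes. Of the 7 neutrophil markers 5 fell in the same livers, and so did Pdgfrb, a stellate cell or fibroblast marker. Rps19 (0.17 ± 0.10) and Rps16 (0.16 ± 0.08) were at the upper end, and Rpsa (-0.19 ± 0.10) and Rps2 (-0.17 ± 0.08) at the lower end.

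Between times in control livers, Rplp1 was the only gene of the 78 that was called, and it fell. It was at 344, 318 and 290 RPKM in control livers at CT12, against 395, 385 and 413 RPKM in control livers at CT0, a log2 difference of -0.33 ± 0.09 (SE, adjusted p = 0.045 by limma). The groups did not overlap. The call was lost with equal library sums, the trimmed mean, the median ratio, no minimum RPKM and the replicate block, and with 8 of the 12 libraries left out in turn. The adjusted p by limma ranged from 0.017 to 0.17 over the alternatives, the highest without control replicate 3 at CT12. Of all genes tested, 7.43% fell and 3.4% rose. An unadjusted p was under 0.05 in 15 of the 78 (19.2%), against 26.4% of all genes.

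The median over the 78 was -0.13 in control livers, against -0.08 over all genes tested, and it was -0.041 with the trimmed mean. The CT12 libraries all lay below the CT0 libraries in 29 of the 78 genes and above in none, against 22.8% and 10.7% of all genes. With the trimmed mean they lay below in 8 and above in 3, against 16.4% and 16.5% of all genes. Of all genes, 389 rose and 850 fell with RPKM as deposited, against 643 and 592 under the trimmed mean. Rplp2 (-0.30 ± 0.12), Rpl38 (-0.30 ± 0.10) and Rps21 (-0.29 ± 0.12) were next to Rplp1 and did not pass. Markers moved here as well, and the 7 neutrophil markers summed to 5.94 to 8.80 RPKM in control livers at CT12, against 32.2 to 112 RPKM in control livers at CT0, and 5 of the 7 fell. Of the 5 erythroid markers tested 2 fell, and of the 10 Kupffer cell or macrophage markers C1qb fell. The 9 endothelial markers summed to 96.7 to 104 RPKM in control livers at CT12, against 134 to 163 RPKM in control livers at CT0, and Cdh5 and Tek fell. The 10 stellate cell or fibroblast markers summed to 102 to 120 RPKM at CT12, against 138 to 195 RPKM at CT0, and Dcn and Pdgfrb fell. The lymphocyte markers summed to 7.25 to 11.5 RPKM at CT12, against 20.8 to 23.5 RPKM at CT0, and Igj fell. The part of these cells in the result was not tested.

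The difference between the genotype effects at CT12 and CT0, tested as an interaction, was not called for any of the 78 genes by limma, against 0.97% of all genes with a positive and 0.341% with a negative interaction, and 6 of the 78 (7.69%) had an unadjusted p under 0.05, against 11.9% of all genes. The median interaction was 0.13 over the 78, against 0.07 over all genes, and 0.045 with the trimmed mean. The largest were Rps21 (0.41 ± 0.17), Rpl39 (0.33 ± 0.15), Rps19 (0.33 ± 0.14) and Rplp0 (0.33 ± 0.13), with adjusted p-values of 0.32 to 0.41 by limma. A p above the threshold does not show that the effects were alike at both times.

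Within groups the genes moved together from liver to liver. After the group means were taken out, the correlation between pairs of the 78 genes over the 12 libraries of the Bmal1 experiment had a median r of 0.60, and 95.8% of the 3003 pairs were positive. The same value was 0.40 for 38 proteasome genes, 0.30 for 39 ribosome biogenesis genes, 0.24 for 76 mitochondrial ribosomal protein genes and 0.20 for 32 translation factors and other TOP mRNAs. The pairs share the library and its scaling, and the values are a description. In the median over the 78 genes, the library labelled knockout of replicate 3 at CT12 lay 0.12 (log2) above its group mean and that of replicate 2 lay 0.09 below. The control library of replicate 3 at CT12 lay 0.09 below its group mean.

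The genes called at CT12 were set beside the start sequences. Of the 26, 16 had a RefSeq entry. A pyrimidine run at the annotated start was found in 1 of these 16 and in 12 of the 45 others. CACGTG was found in 3 of the 16 (Rpl13a, Rpl14 and Rps19) and in 3 of the 45. With each of the 12 libraries left out in turn, Rpl13a was called in 9 fits, Rps19 in 5 and Rpl14 in 2. None of these 3 was called with the trimmed mean or the median ratio. Rps12 and Rpl10a, called under every scaling, had no CACGTG, and Rplp1 had no entry. CCGGAA was found in 7 of the 16 and in 27 of the 45, and AGGTCA in none of the 16 and in 7 of the 45. The 45 include Rpl10l, Rpl39l and Rpl3l, which were not tested in the Bmal1 experiment and so could not be called. Rpl10l and Rpl3l hold AGGTCA, and Rpl39l holds CCGGAA. Rps6, whose window above has the run at the start, was not called, and Rps12, whose run begins at base 9, was.

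Lists of related genes were described beside the ribosomal protein genes at CT12, without a test of the lists and against the 6.46% of all genes that rose, the 3.22% that fell and the median of 0.09 over all genes. Of 32 translation factors and other TOP mRNAs, 4 rose and none fell in livers labelled Bmal1 knockout, and the median was 0.16. They were Eif4a2 (0.39 ± 0.08), a helicase of translation initiation, Eif3g (0.36 ± 0.09) and Eif3a (0.35 ± 0.10), subunits of an initiation factor, and Gnb2l1 (0.27 ± 0.08), which encodes the ribosome-bound scaffold RACK1. Of 16 genes of mTOR signalling, Ddit4, an mTOR inhibitor, rose by 1.25 ± 0.33 and none fell. Of 76 mitochondrial ribosomal protein genes, Mrpl18 rose by 0.38 ± 0.09 and none fell, with a median of 0.11, and of 38 proteasome genes 1 rose and 1 fell, with a median of 0.06.

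In the Nr1d1 experiment none of the 79 genes tested passed in any comparison by limma with the replicate as a block. Of all 12738 genes tested, 0.0314% rose and 0.00785% fell in livers labelled Nr1d1 knockout at CT12, and 0% rose or fell at CT0. None of the 79 had an unadjusted p under 0.05 in either comparison, against 4.55% of all genes at CT12 and 4.51% at CT0. The median log2 difference was 0.16 at CT12, against 0.04 over all genes, and -0.03 at CT0, against -0.05 over all genes. With 2 livers a group the standard error of a gene had a median of 0.20, against 0.09 in the Bmal1 experiment.

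The replicates are therefore also given apart, and each such value is a difference between single libraries with no test. The RPKM of all genes summed to between 588418 and 875424 per library in replicate 1 and to between 2099302 and 2211054 in replicate 2, so that levels cannot be set side by side across the replicates. The libraries of replicate 1 differed in composition. The Mup genes, which encode the major urinary proteins of the mouse liver, took 21.7% of the summed RPKM in the liver labelled Nr1d1 knockout at CT12, against 39.0% in the control at CT12, and 49.4% in the liver labelled knockout at CT0, against 55.4% in the control at CT0. In replicate 2 they took between 0.516% and 0.630%. As a share of the summed RPKM, the ribosomal protein genes took 2.90% in replicate 1 and 4.03% in replicate 2 in livers labelled knockout at CT12, against 2.193% and 3.47% in the controls. At CT0 they took 1.95% and 3.60% in livers labelled knockout, against 1.90% and 3.31% in the controls. On this scale the liver labelled knockout was the higher one in both replicates at both times. In replicate 1 this share depends on the Mup genes, which are part of the summed RPKM and took less of it in livers labelled knockout. The order in replicate 1 is therefore not independent of the Mup genes. Relative to the proteasome genes the sum was 9.85 and 11.3 times in livers labelled knockout at CT12, against 9.57 and 9.60 times in the controls, and 9.77 and 9.82 times in livers labelled knockout at CT0, against 10.7 and 9.51 times in the controls. The 7 neutrophil markers summed to 10.7 and 26.8 RPKM in the livers labelled knockout of replicate 2 at CT12 and CT0, against 2.43 and 3.37 RPKM in the controls, and to at most 1.71 RPKM in replicate 1. The 7 erythroid markers found summed in replicate 1 to 1819 RPKM in the liver labelled knockout at CT12, against 910 RPKM in the control, and to 1605 RPKM in the liver labelled knockout at CT0, against 1022 RPKM in the control. In replicate 2 they summed to 2975 RPKM in the liver labelled knockout at CT12, against 4811 RPKM in the control, and to 11066 RPKM in the liver labelled knockout at CT0, against 2869 RPKM in the control. The Kupffer cell or macrophage markers were all 10 higher in the liver labelled knockout of replicate 2, with a median log2 difference of 0.56 at CT12 and 0.84 at CT0. In replicate 1, 2 of the 10 were higher at CT12 and 8 at CT0. The stellate cell or fibroblast markers had a median log2 difference of 0.84 in replicate 2 at CT12 and the endothelial markers one of 0.56. The part of these differences in the result was not tested.

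In replicate 1 the 81 genes summed to 17062 RPKM in the liver labelled Nr1d1 knockout at CT12, against 16162 RPKM in the control, and to 14375 RPKM in the liver labelled knockout at CT0, against 16663 RPKM in the control. In replicate 2 the sum was 85324 RPKM in the liver labelled knockout at CT12, against 72898 RPKM in the control, and 79502 RPKM in the liver labelled knockout at CT0, against 69782 RPKM in the control. At CT12 the liver labelled knockout was higher in both replicates, while at CT0 it was lower in replicate 1 and higher in replicate 2.

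**Figure D5:**
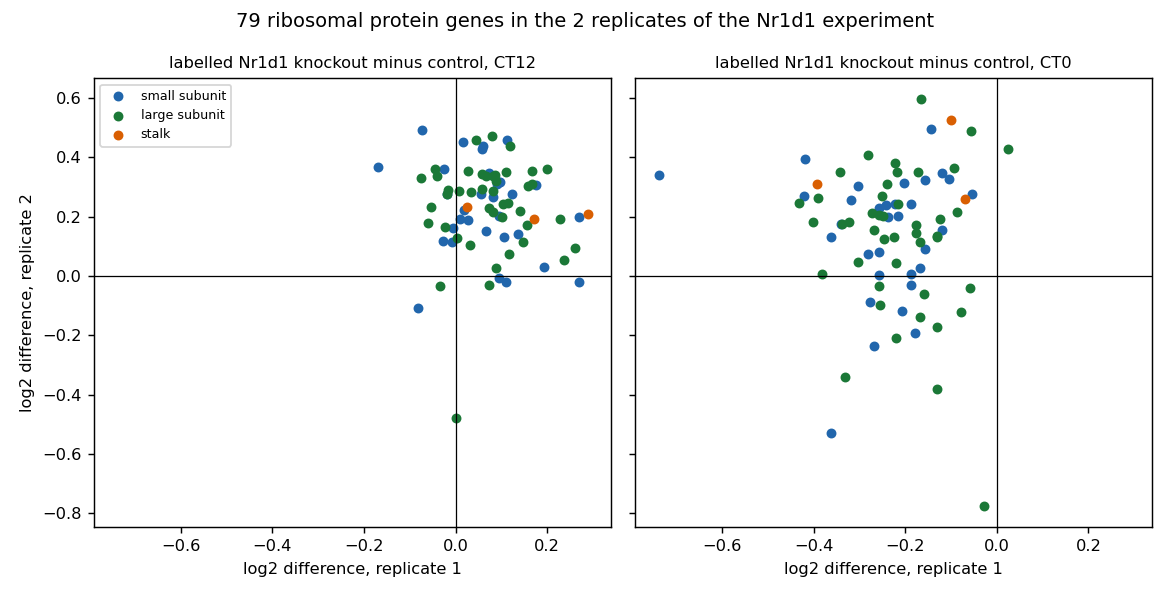
Log2 difference of RPKM + 0.5 between the library labelled Nr1d1 knockout and its control for each of the 79 genes tested, in replicate 1 (x axis) and replicate 2 (y axis), at CT12 on the left and CT0 on the right. At CT12, 57 genes are above 0 on both axes; at CT0, 61 have opposite signs.

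By gene, the difference between the liver labelled Nr1d1 knockout and its control at CT12 was above 0 in 61 of the 79 genes in replicate 1 and in 72 in replicate 2. Of all genes, 46.8% were above 0 in replicate 1 and 59.7% in replicate 2. The medians were 0.08 in replicate 1 and 0.25 in replicate 2, against -0.01 and 0.07 over all genes. In 57 genes the difference was above 0 in both replicates, in 2 below 0 in both, and in 19 the signs were opposite, while Rpl3l was listed at 0 in both CT12 libraries of replicate 1. At CT0 it was above 0 in 1 of the 79 genes in replicate 1 and in 62 in replicate 2, against 34.2% and 49.3% of all genes. The medians were -0.22 and 0.18, against -0.08 and -0.01 over all genes. The signs were opposite in 61 of the 79.

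Among single genes, Rps12 stood in replicate 1 at 316 RPKM in the liver labelled Nr1d1 knockout at CT12, against 292 RPKM in the control, and in replicate 2 at 2136 RPKM, against 1556 RPKM in the control. The knockout-labelled library was the higher one in both, and the log2 difference of 0.28 ± 0.20 was the largest of the 79 at CT12 (adjusted p = 1.00 by limma). Rpl23a and Rpl39 had log2 differences of 0.28 as well, with standard errors of 0.19 and 0.20. Rps27 was at 520 RPKM in the liver labelled knockout, against 550 RPKM in the control, in replicate 1, and at 1562 RPKM in the liver labelled knockout, against 1685 RPKM in the control, in replicate 2, lower in both. Rpl3l, at 1.19 RPKM in the liver labelled knockout, against 1.85 RPKM in the control, in replicate 2, had the lowest log2 difference, -0.24 ± 0.33, and Rpl36 was at -0.03 ± 0.20.

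At CT0, Rps24, which like Rps19 is mutated in the anaemia named above, was at 203 RPKM in the liver labelled Nr1d1 knockout, against 262 RPKM in the control, in replicate 1, and at 755 RPKM, against 1091 RPKM in the control, in replicate 2. It was lower in both, with a log2 difference of -0.45 ± 0.20 (adjusted p = 0.87 by limma). Rpl5 was at 122 RPKM in the liver labelled knockout, against 153 RPKM in the control, in replicate 1, and at 407 RPKM, against 514 RPKM in the control, in replicate 2, also lower in both. Rpl3l had a log2 difference of -0.40 ± 0.33. In replicate 2 it was at 0.506 RPKM in the liver labelled knockout, against 1.22 RPKM in the control. In replicate 1 it was at 0 RPKM, against 0.0095 RPKM in the control. The value therefore rests on replicate 2, at levels near the 0.5 that was added. At the upper end, Rpl38 was at 258 RPKM in the liver labelled knockout, against 254 RPKM in the control, in replicate 1, and at 971 RPKM, against 721 RPKM in the control, in replicate 2, the only gene of the 79 above 0 in replicate 1. Rpl19 and Rpl27 followed with log2 differences of 0.22, with standard errors of 0.21 and 0.23.

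Between times in the Nr1d1 experiment, 5 of the 79 genes had an unadjusted p under 0.05 in livers labelled knockout (6.33%, against 14.4% of all genes), and none in controls (8.09% of all genes). The 5 were Rpl5 (0.58 ± 0.20), Rps24 (0.55 ± 0.20), Rpl3 (0.50 ± 0.19), Rpl4 (0.47 ± 0.19) and Rpl30 (0.45 ± 0.18), higher at CT12 than at CT0, with adjusted p-values of 0.29 to 0.33 by limma. Of all genes, 0.055% rose and 0% fell there, and in controls 0.173% rose and 0.181% fell. The median over the 79 was 0.21 in livers labelled knockout, against 0.16 over all genes, and 0.01 in controls, against 0.08 over all genes. Other scalings moved the median of all genes in livers labelled knockout to between -0.02 and 0.34. Taken relative to it, the median of the ribosomal protein genes lay 0.05 above with RPKM as deposited and between 0.00 and 0.10 above under the scalings. In controls the difference from the median of all genes was -0.08, with differences of -0.11 to -0.07 under the scalings.

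The interaction in the Nr1d1 experiment was called for none of the 79 genes and for 0% of all genes, with 1 of the 79, Rps24 (0.70 ± 0.28), at an unadjusted p under 0.05, against 4.22% of all genes. The median interaction was 0.18 over the 79, against 0.09 over all genes. The residuals of the 79 genes, after group and replicate were fitted, correlated with a median r of 0.76 over the 8 libraries. The fit left 3 residual degrees of freedom, and the residuals of replicate 2 mirror those of replicate 1. The pairs of genes also share library composition.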

How the data were processed

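Of the files, the 20 RNA-seq tables were used, and the 6 chromosome conformation libraries were not used here. The values were deposited by the authors as RPKM, 1 value per Ensembl transcript. Per the submitters' processing notes, the build was mm9 and the tools TopHat2, bedtools 2.19.1 and, except in replicate 2 of the Nr1d1 experiment, Bowtie. What each of them did, which annotation and strand setting were used, and how reads that match several places were counted is unstated. Libraries were made with the Illumina TruSeq RNA kit, per the labels' protocols.

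The 46585 transcripts present in every library were joined, which held 173 transcripts of the 81 genes. Tests used limma 3.58.1 in R 4.3.3 with a trend of the variance on the mean, on values of log2(RPKM + 0.5), for genes with a mean of at least 0.5 RPKM in the experiment, two-sided, with Benjamini-Hochberg adjustment over all genes tested and a threshold of 0.05. Adding 0.5 shrinks the differences of genes at low RPKM. The Bmal1 experiment was fitted with 4 group means. In the Nr1d1 experiment the replicate number was a block. Deviations of libraries with the same number correlated between 0.82 and 0.88 there, and between -0.06 and 0.12 in the Bmal1 experiment. No pair of libraries shared more than 0.0061% of its values above 0. The fit was tested on simulated data.

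The alternatives were scaling by a trimmed mean of log2 ratios (outer 30% of ratios and 5% of levels left out), by equal library sums, by quantiles and by a median ratio over the other genes, a pseudocount of 0.1, no minimum RPKM, the sum over transcripts, the replicate block and leaving out each library. Equal sums without the 10 most abundant genes, and the counts of groups that do not overlap under each scaling, were chosen after seeing the data. The members, the gene lists and the tests were chosen with earlier results of these data known. Named genes were the stalk genes, genes known for roles outside the ribosome, in disease or as reference genes, paralogs and their parents, the 5 highest and lowest by mean, the 5 called genes of largest change in each direction, and the 3 genes farthest from the median on each side of each knockout comparison. A gene that the rule names is not reported here. Of other lists, the 3 called genes of largest size were named. Genes that also appear for the share of reads they take (Alb, the Mup genes) and the members of short lists of calls were named after their values were seen. Start sequences came from RefSeq, whose build differs from that of the files, and were matched by symbol.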

Additional observations from a re-analysis of the deposited data

How the results depend on the processing

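In the Bmal1 experiment the direction of the CT12 genotype difference was the same under each alternative, and the number of genes that rose was not. With RPKM as deposited 26 genes rose, against 6.46% of all genes tested. The number was 3 with a trimmed mean of log2 ratios or a median ratio, 40 with equal library sums and 16 with the replicate as a block. Under the trimmed mean the share of the ribosomal protein genes that rose was slightly below that of all genes. For the other alternatives at CT12 the share of all genes is not given. The median was 0.18 with the trimmed mean and 0.18 with the median ratio. At CT0, 6 genes rose with equal library sums. The groups did not overlap, in either direction, in 26 genes with the trimmed mean, 22 with quantiles and 28 with the median ratio. The count was 25 without the 10 most abundant genes, against 44 with RPKM as deposited. With quantiles 1 of these genes lay below, and so did 1 without the 10 most abundant genes. Of all genes, 9.52% to 10.4% lay above and 9.66% to 9.97% below under these 4 scalings. Between times in livers labelled knockout the groups did not overlap, in either direction, in 4 genes with equal sums and 6 with quantiles. The count was 4 without the 10 most abundant genes, against 2 with RPKM as deposited. Of all genes, 11.4% to 13.5% lay above and 10.0% to 11.2% below under these scalings. The single call between times in control livers became 0 with the trimmed mean, equal sums, the median ratio, no minimum RPKM and the replicate block, and 2 with quantiles. Its median was -0.041 with the trimmed mean and -0.042 with the median ratio. The groups did not overlap, in either direction, in 11, 13 and 11 genes with the trimmed mean, equal sums and the median ratio. Of all genes, 15.1% to 16.5% lay above and 16.4% to 17.5% below under these scalings. The median interaction was 0.045 with the trimmed mean and 0.044 with the median ratio.

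In the Bmal1 experiment the deviations of libraries with the same replicate number correlated between -0.06 and 0.12. That does not show that the livers were unpaired. The 16 genes called with the block were all among the 26. No gene of the 79 in the Nr1d1 experiment was called with or without the replicate block. There the median at CT12 was 0.31 with equal sums, the median between times in livers labelled knockout 0.014 with the trimmed mean, 0.40 with equal sums, 0.079 with quantiles and 0.040 with the median ratio, and that in controls 0.13 with equal sums.

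With 1 library left out, the number of genes that rose at CT12 in the Bmal1 experiment lay between 3 and 27. The calls between times in control livers lay between 0 and 1. Calls over all genes in these fits are not given. The genotype median at CT0 in the Nr1d1 experiment lay between -0.18 and 0.11 and changed sign without either CT0 library of replicate 1 (0.11 without the library labelled knockout, 0.10 without the control). The median between times lay between 0.037 and 0.32 in livers labelled knockout and between -0.11 and 0.14 in controls, and the interaction between 0.064 and 0.32. Where a group is left with 1 library, it is assumed to vary like the other groups. The cause of these changes was not tested. Depth limited no gene tested in the Bmal1 experiment beyond a counting error of 4.01%, and the number of livers limits both experiments.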

Other observations

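Genes that build ribosomes were described between times, apart from the proteins of the ribosome itself. In livers labelled Bmal1 knockout, 2 of 39 ribosome biogenesis genes, Nop56 (log2 difference 1.02) and Polr1e (0.59), rose at CT12 against CT0 and none fell by limma (0.909% of all genes rose), with a median of 0.29. In control livers 7 of the 39 rose between the same times and none fell (3.4% of all genes rose), with a median of 0.18. The 7 included Gnl3 (log2 difference 0.98 ± 0.22), which encodes nucleostemin, Nolc1 (0.88 ± 0.23), a nucleolar phosphoprotein, and Nop2 (0.74 ± 0.19), an rRNA methyltransferase. No interaction was called among the 39 and 1 had an unadjusted p under 0.05. In the Nr1d1 experiment none of the 39 was called between times, 7 had an unadjusted p under 0.05 in livers labelled knockout and 8 in controls, and the medians were 0.23 in livers labelled knockout and 0.29 in controls. The ribosomal protein genes over the same times in the Bmal1 experiment had medians of 0.01 in livers labelled knockout and -0.13 in control livers.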
